A study of Danio rerio with 12 samples.

Results

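Silver nanoparticles (AgNPs) were given to zebrafish larvae in their water, and the transcripts of exposed larvae were set against those of unexposed larvae on 6 microarrays, 6 of the 12 arrays of the series. These 6 were chosen by their titles, which pair control with AgNPs, and carry the replicate numbers 1 to 6. The other 6 arrays set larvae exposed to silver nitrate (AgNO3), a soluble silver salt, against control larvae.

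All larvae were wild type fish of the AB strain, 21 days old, and the whole larva was the source of the RNA. The AgNPs group was kept in water with 0.01 mg/L of nanoparticles for 15 days from 6 days post fertilization (dpf), and the AgNO3 group in water with the salt at the same nominal 0.01 mg/L. The control group was kept in conditioned water with methylene blue, a dye used against fungal growth, and no silver. Exposure took place in tanks of 1 L. The number of tanks per group, the number of larvae pooled per sample, the size and coating of the particles, the silver measured in the water and the hour of sampling were not given in the sources used here. Although the samples are called biological replicates, nothing ties them to separate tanks, so a p-value here covers the spread among these samples alone, which may be partly technical. From their codes there were 6 control samples, each placed on 1 AgNPs array and on 1 AgNO3 array, and the 2 comparisons therefore share their controls. Each array carried 2 samples in 2 dyes. On AgNPs replicates 1 to 3 the exposed RNA carried Cy5 and on replicates 4 to 6 it carried Cy3.

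Particles of silver release silver ions, which bind to thiol groups of proteins and glutathione, and in fish the ions block sodium uptake by the gill and skin. Metallothioneins, small proteins rich in cysteine, bind such metal ions, and the antioxidant genes under the factor Nrf2 answer to oxidised or thiol-blocked proteins. The larval gut, whose absorptive cells carry transporters and peptidases on their brush border, meets swallowed water directly. The transcripts of clock genes and of some photoreceptor genes change with the hour of the day in zebrafish, so the time at which larvae were collected bears on their levels.

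The values were log ratios of an exposed to a control sample, taken as base 2. That exposed larvae stand on top of the ratio is likely but not settled by the sources, and neither is whether the values of the dye-swapped replicates 4 to 6 had been turned before deposit. Every sign and every call below, for exposure as for dye orientation, rests on the usual order and on values already turned. Had they not been turned, a response to exposure would stand in the dye orientation term and a dye difference in the exposure term. With the swapped arrays turned once more, 0 features passed in AgNPs by limma, and 1436 had an unadjusted p under 0.05. The arrays differed in spread: the interquartile range of log2 ratios was 0.293 on AgNPs replicate 1 and 0.233 on replicate 2, against 0.0946 to 0.116 on replicates 3 to 6. On the 6 AgNO3 arrays it was 0.216 to 0.342, so AgNPs replicates 3 to 6 were the narrow arrays of the series. AgNPs minus AgNO3 therefore compares arrays of unlike spread. Correlations between AgNPs arrays were taken over the 20927 features with values on all 6. Arrays of the same dye orientation had a mean Pearson correlation of 0.104 (6 pairs), and arrays of opposite orientation one of -0.022 (9 pairs). These describe features that share arrays and dyes. Levels of a transcript cannot be read from a ratio, so tissue markers could not be checked as levels, and signal over background is unknown.

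A total of 25264 features, of which 14329 were named genes and 10935 probes without a gene name, were tested in 1 linear model of all 12 arrays with a term for dye orientation (limma, 2-sided, Benjamini-Hochberg adjustment over all features). With AgNPs, 6 features passed an adjusted p of 0.05, which is 0.0237% of those tested. The gene of the angiotensin-converting enzyme, a clock repressor, a photoreceptor calcium sensor, a gene of no given role and 1 unnamed probe fell (5 features, 0.0198%), and the gene of a green cone opsin rose (1 feature, 0.00396%). At an unadjusted p under 0.05 stood 1072 features (4.24%), 518 higher (2.05%) and 554 lower (2.19%), where 1263.2 would be expected by chance. In whole larvae, fewer cells of a type and less RNA per cell cannot be told apart.

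The gene ace encodes the peptidase that, in mammals, turns angiotensin I into angiotensin II and breaks down bradykinin, and sits on vessel walls and on the brush border of absorptive cells. Its log2 ratio was -1.42, -1.80, -1.78, -0.85, -1.34 and -1.13 on AgNPs replicates 1 to 6, against -0.92, -0.71, -0.89, -0.56, -0.96 and -0.77 on AgNO3 replicates 1 to 6. All 12 arrays lay below 0, and the lowest 5 values were those of AgNPs replicates 1, 2, 3, 5 and 6. Expression of ace fell by 1.39 on the log2 scale with AgNPs (SE 0.094, n = 6), to 38.2% of control, with a limma adjusted p of 0.000449. Its mean was -1.67 over the 3 Cy5 arrays and -1.11 over the 3 Cy3 arrays, and 3 of 3 probes were lower. With AgNO3 the fitted value was -0.80 (SE 0.094, limma adjusted p = 0.0447). Leaving out any 1 of the 12 arrays kept the call, but with the 6 AgNPs arrays alone the adjusted p was 0.141, in a range of 0.000181 to 0.902 over all alternatives.

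Of 11 listed genes of the renin-angiotensin system 5 were tested, and ace was the 1 that passed. The hormone precursor agt had -0.52, -0.43, -0.17, -0.12, 0.37 and -0.21 on AgNPs replicates 1 to 6, with 1 of 6 arrays higher and a fitted value of -0.18 (SE 0.10). The value of enpep, a peptidase that trims angiotensin II, was -0.18, and -0.091 without replicate 2. The receptor genes agtr2 and atp6ap2 stood at -0.044 and 0.15 (-0.0091 and 0.059 without replicate 1). The renin gene ren and the receptor genes agtr1a, agtr1b and mas1 were among those not tested here.

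The green cone opsin gene opn1mw1 was the feature that rose. Opsins are the light-absorbing proteins of photoreceptors, and zebrafish carry 4 green cone opsin genes side by side with closely related sequences, so a probe may not tell the copies apart. Its log2 ratio was 1.15, 0.95, 0.45, 0.71, 0.86 and 1.06 on AgNPs replicates 1 to 6, against 0.35, 0.47, 0.44, 0.52, 0.57 and 0.39 on AgNO3 replicates 1 to 6. All 12 values were above 0, and 5 of 6 AgNPs arrays lay above the highest AgNO3 array. Expression rose by 0.86 on the log2 scale (SE 0.082, n = 6), to 182% of control, with a limma adjusted p of 0.00663. Both orientations gave nearly the same mean, 0.85 with exposed RNA in Cy5 and 0.87 in Cy3. Without AgNPs replicate 5 the limma adjusted p was 0.0551 and without replicates 1 and 2 it was 0.0695. With the 6 AgNPs arrays alone it was 0.424, in a range of 0.00155 to 1 over all alternatives.

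A calcium sensor of photoreceptors and a clock repressor fell. The gene guca1c encodes a guanylate cyclase activator, which restarts cGMP synthesis when calcium drops after light, and had -0.60, -0.88, -0.53, -0.56, -0.72 and -1.08 on AgNPs replicates 1 to 6. It fell by 0.73 on the log2 scale, to 60.3% of control (SE 0.087, n = 6, limma adjusted p = 0.0247). The gene ciarta encodes a repressor of the clock activators, known from mouse, and had -1.30, -1.30, -0.56, -0.57, -0.47 and -0.76 on the same arrays, with replicates 1 and 2 the lowest. It fell by 0.82 on the log2 scale, to 56.5% of control (SE 0.11, n = 6, limma adjusted p = 0.0475). On the AgNO3 arrays guca1c lay between -0.86 and -0.36 and ciarta between -0.94 and -0.29, so for both genes the arrays of the 2 exposures overlapped. These were the calls closest to the threshold: guca1c passed in 13 of 29 alternatives and ciarta in 8, the turned arrays, the single orientations and each array left out among them. The call of guca1c ended without AgNPs replicate 1, 2, 4, 5 or 6 or AgNO3 replicate 1, 3, 4 or 5, and that of ciarta without any 1 array other than AgNPs replicate 3.

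The predicted gene si:ch73-52f24.4 had -0.47, -0.41, -0.72, -0.74, -0.75 and -0.94 on AgNPs replicates 1 to 6 and fell by 0.67 on the log2 scale, to 62.8% of control (SE 0.067, limma adjusted p = 0.00717). It is a gene model with no role given in the sources used here, and both of its probes were lower. The unnamed probe A_15_P753176 had -0.83, -1.01, -0.87, -1.94, -1.05 and -1.18 and fell by 1.15 on the log2 scale, to 45.2% of control (SE 0.13, limma adjusted p = 0.0181). Its AgNO3 arrays lay between -0.67 and -0.0027, all above the highest AgNPs array. Leaving out AgNPs replicate 5 ended both calls, and that of the probe also ended without AgNPs replicate 1, 2 or 6 or AgNO3 replicate 1 or 4.

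Probes of one gene did not always have like values on an array. The 3 probes of ace had fitted values of -1.84, -1.28 and -1.03, and all 18 of their values were below 0. Of the 2 opn1mw1 probes, A_15_P153321 had 0.36, 0.84, 0.47, 0.89, 1.09 and 1.33 and A_15_P117046 had 1.95, 1.06, 0.42, 0.52, 0.62 and 0.79 on AgNPs replicates 1 to 6, so replicate 1 was lowest on one and highest on the other. For guca1c, probe A_15_P103714 was at 0.20 on replicate 1 and below 0 on the other 5 arrays, while A_15_P688556 was below 0 on all 6. Both probes of ciarta were below 0 on all 6 arrays. With each probe on its own, 8 of 38201 probes passed (0.0209%): 2 of ace, 1 of opn1mw1, the unnamed probe, and 1 each of the red opsin gene opn1lw2 (1.48), the clock gene dbpa (-0.85), the period gene per1b (-0.98) and the DNA methyltransferase gene dnmt1 (0.93).

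**Figure D1:**
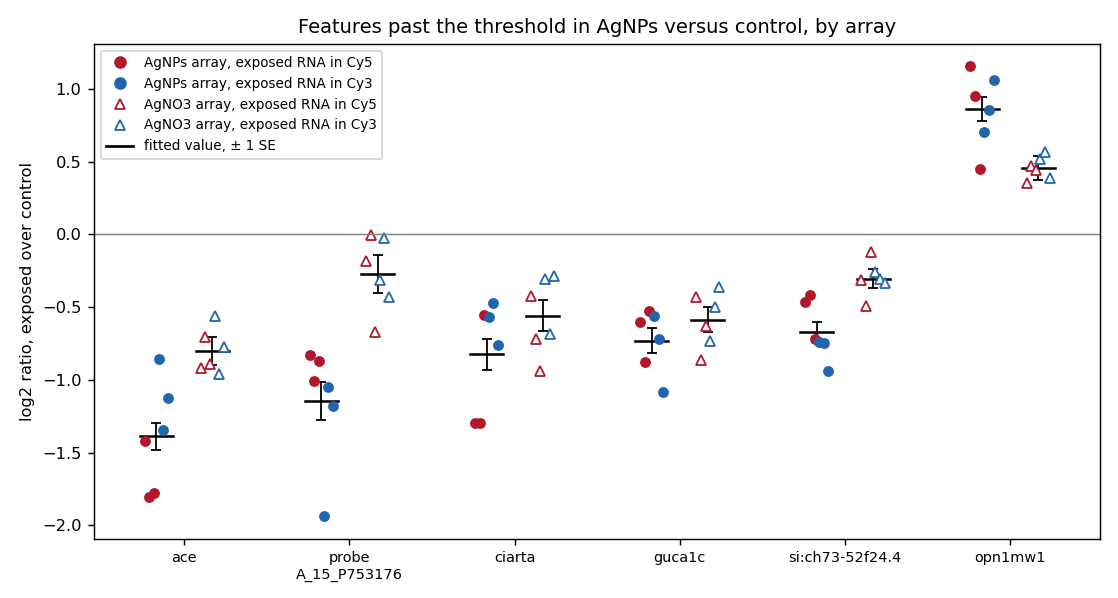
Log2 ratio (y axis, exposed over control) on each array for the 6 features past the threshold in AgNPs; filled circles are AgNPs arrays, open triangles AgNO3 arrays, colours give the dye of the exposed RNA, and bars give the fitted value ± 1 SE. For ace the fitted value was -1.39 with AgNPs and -0.80 with AgNO3, and for opn1mw1 it was 0.86 and 0.46.

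The circadian clock runs on a loop in which the activators Bmal and Clock switch on their own repressors, the period and cryptochrome proteins, and on a side loop of nuclear receptors that act on the bmal1 genes. Of 47 listed clock genes 39 were tested with AgNPs, 12 above 0 and 27 below, with a median log2 ratio of -0.12 beside 0.0028 over all tested features, of which 51.7% lay above 0 and 48.3% below. Only ciarta passed the adjusted threshold. At an unadjusted p under 0.05 stood 6 members higher and 12 lower, which is 15.4% and 30.8% of the list, beside 2.05% and 2.19% of all features. The lists hold named genes only. Of all 14329 tested genes, 2.67% were higher and 2.67% lower at that p. All 6 arrays were lower for 10 members and higher for 4, where 1.87% and 2.05% of all features had this. This list, like every gene list here, was chosen with earlier results of these data known. Shares above those of all features may come in part from that choice.

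Among the activators, bmal1a had 1.39, 1.19, 0.44, 0.47, 2.14 and 0.89 on AgNPs replicates 1 to 6 and a fitted value of 1.09 (SE 0.21, limma adjusted p = 0.296), above 0 on every array. Its copy bmal1b had 1.36 and 1.06 on replicates 1 and 2 but -0.052 to 0.14 on the other four. The partner gene clockb stood at -0.072, with arrays on both sides of 0.

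The repressor cry2, a cryptochrome, had -0.58, -1.27, -1.33, -0.87, -0.96 and -1.07 and a fitted value of -1.01 (SE 0.15, limma adjusted p = 0.0985). It passed when arrays were weighted by their spread (-1.03, limma adjusted p = 0.00901), in a range of 0.00901 to 1 over all alternatives. The nuclear receptor gene nr1d1 (Rev-erb alpha), which represses bmal1, had -1.39, -0.96, -1.88, -0.41, -0.29 and -1.03 and a fitted value of -0.99 (SE 0.15, limma adjusted p = 0.102). The repressor bhlhe41 was at -1.32 at the lowest, -0.51 at the median and -0.16 at the highest, lowest on replicates 1 and 2, with a fitted value of -0.66. Some further members were singled out after their values were seen: the period genes per1b and per2 had fitted values of -0.68 and -0.39, each lower on all 6 arrays, cry5 stood at -0.57, and the cryptochromes cry3a, cry3b and cry4 lay above 0 at 0.53, 0.42 and 0.23.

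Clock output factors bind the same DNA element either as activators (the Dbp, Tef and Hlf proteins) or as a repressor (Nfil3). The activator gene dbpa had -0.29, -0.50, -0.29, -0.30, -0.61 and -0.58 on AgNPs replicates 1 to 6, and tefa had -1.29, -0.60, -1.53, -0.23, -0.41 and -0.53. All 12 of these values were below 0, with fitted values of -0.43 for dbpa (SE 0.066, limma adjusted p = 0.102) and -0.76 for tefa (SE 0.13, limma adjusted p = 0.155). The probes of dbpa differed, with fitted values of -0.85, -0.24 and -0.20. The last of them, A_15_P119540, was above 0 on replicates 1 and 3, at 0.26 and 0.022. On the opposite side nfil3-5, also picked after its values were seen, had 0.48, 1.78, 0.67, 0.20, 0.28 and 0.57. With AgNO3 the fitted values were 0.87 for bmal1a, -0.41 for cry2, -0.51 for nr1d1, -0.38 for dbpa and 0.07 for tefa. The AgNO3 values come from the same control samples, and the hour at which each sample was collected was not tested because the sources used here do not give it.

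Values of the clock list were larger on the AgNPs arrays of wider spread. The list's median was -0.26 on replicate 1 and -0.19 on replicate 2, against -0.13 to -0.019 on replicates 3 to 6. With arrays scaled to a common spread, 5 members were higher and 15 lower at an unadjusted p under 0.05. These were 12.8% and 38.5% of the list, against 3.93% and 3.9% of all features, and the median was -0.095. Why the arrays differ in spread was not tested. Without replicates 1 and 2, 3 members were higher and 7 lower at an unadjusted p under 0.05, and the median was -0.027, where 2.58% and 2.73% of all features had such a p. With the swapped arrays turned, 2 were higher and 3 lower (5.13% and 7.69% of the list, against 2.88% and 2.8% of all features), with a median of -0.066. Without replicates 1 and 2 and with the arrays as deposited, bmal1a stood at 0.90, cry2 at -1.07, nr1d1 at -1.01 and ciarta at -0.63.

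**Figure D2:**
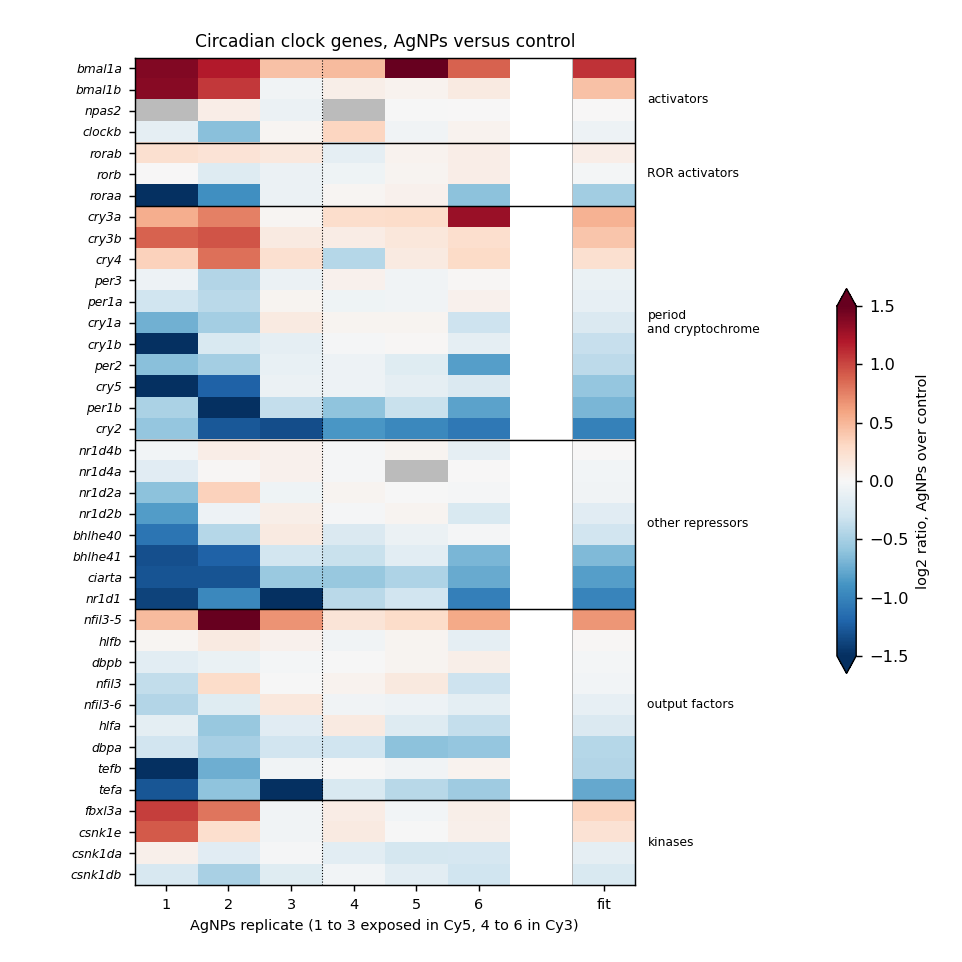
Log2 ratio of AgNPs over control (colour, limits at -1.5 and 1.5) of the 39 tested clock genes, one per line and grouped by role, on AgNPs replicates 1 to 6 (x axis) with the fitted value at the right; grey marks an empty value. The genes bmal1a (1.09) and nfil3-5 (0.66) are above 0 on every array, and cry2 (-1.01), nr1d1 (-0.99) and ciarta (-0.82) below 0 on every array.

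Photoreceptors turn light into a signal through opsins, the G protein transducin, a phosphodiesterase that breaks down cGMP, and cation channels that cGMP holds open. Of 70 listed photoreceptor and retinoid cycle genes 61 were tested, 42 above 0 and 19 below, with a median of 0.082. This list too was chosen with earlier results of these data known. Past the adjusted threshold were opn1mw1, higher, and guca1c, lower. At an unadjusted p under 0.05 stood 15 higher and 5 lower, 24.6% and 8.2% of the list against 2.05% and 2.19% of all features. Without replicates 1 and 2 these counts were 14 and 6 (23% and 9.84%, against 2.58% and 2.73% of all features) and the median 0.068. With the swapped arrays turned the counts were 5 and 5 (8.2% each, against 2.88% and 2.8% of all features) and the median -0.01.

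Of the 8 opsin genes tested 7 lay above 0. The red cone opsin gene opn1lw2 had 0.97, 0.89, 1.05, 0.69, 0.74 and 2.81 on AgNPs replicates 1 to 6, with replicate 6 far above the others. The fitted value was 1.19 (SE 0.23, limma adjusted p = 0.296), and without replicate 6 it was 0.85 with a limma adjusted p of 0.00127, in a range of 0.00127 to 0.991 over all alternatives. Its probe A_15_P111012 had 0.77, 0.67, 0.07, 0.085, 0.21 and 3.57, with replicate 6 far above the other 5, whereas A_15_P119429 lay between 1.11 and 2.05 on all 6. The neighbouring red opsin copy opn1lw1 stood at 0.096. Named after their values were seen, the blue cone opsin gene opn1sw2 had 1.89, 0.91, 1.48, -0.28, -0.23 and 0.25, high on the Cy5 arrays 1 to 3 only, and the ultraviolet cone opsin gene opn1sw1 stood at 0.082. The other green opsin copies opn1mw2, opn1mw3 and opn1mw4 stood at 0.24, 0.19 and -0.0085. The rod opsin gene rho was not tested here.

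Transducin passes the signal from the opsin to the phosphodiesterase, and 6 of its 7 tested subunit genes lay above 0, with a median of 0.35. The rod gamma subunit gene gngt1 had 0.22, 0.30, 0.21, 0.56, 0.68 and 0.73 and a fitted value of 0.45 (SE 0.087, limma adjusted p = 0.296). The cone gamma subunit gene gngt2a had 0.61, 0.43, 0.31, 0.44, 0.37 and 0.15, and its copy gngt2b had 0.20, 0.25, 1.25, 0.42, 0.44 and 0.84. All 18 values of these 3 genes were above 0, with fitted values of 0.39 and 0.56 for the cone genes. The alpha subunit genes gnat1 of rods and gnat2 of cones stood at 0.018 and -0.19.

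Of the phosphodiesterase, pde6ga, the inhibitory subunit gene, had -0.52, -1.22, -1.59, -0.32, -2.33 and -1.77 and a fitted value of -1.29 (SE 0.24, limma adjusted p = 0.295), below 0 on every array. With AgNO3 its fitted value was -1.64. The catalytic subunit genes pde6a, pde6b and pde6c stood at 0.37, 0.019 and -0.25. Among genes that shut the signal off, the cone opsin kinase gene grk7a, singled out afterwards, had -1.38, -0.95, -0.36, -0.21, -0.42 and -0.47. In the retinoid cycle, which regenerates the chromophore, 4 of 10 genes lay above 0, and rpe65a had its lowest values on replicates 1 and 2, -1.29 and -1.17. Of 5 outer segment genes and 5 photoreceptor transcription factor genes, all 10 had fitted values above 0, with medians of 0.19 and 0.15.

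**Figure D3:**
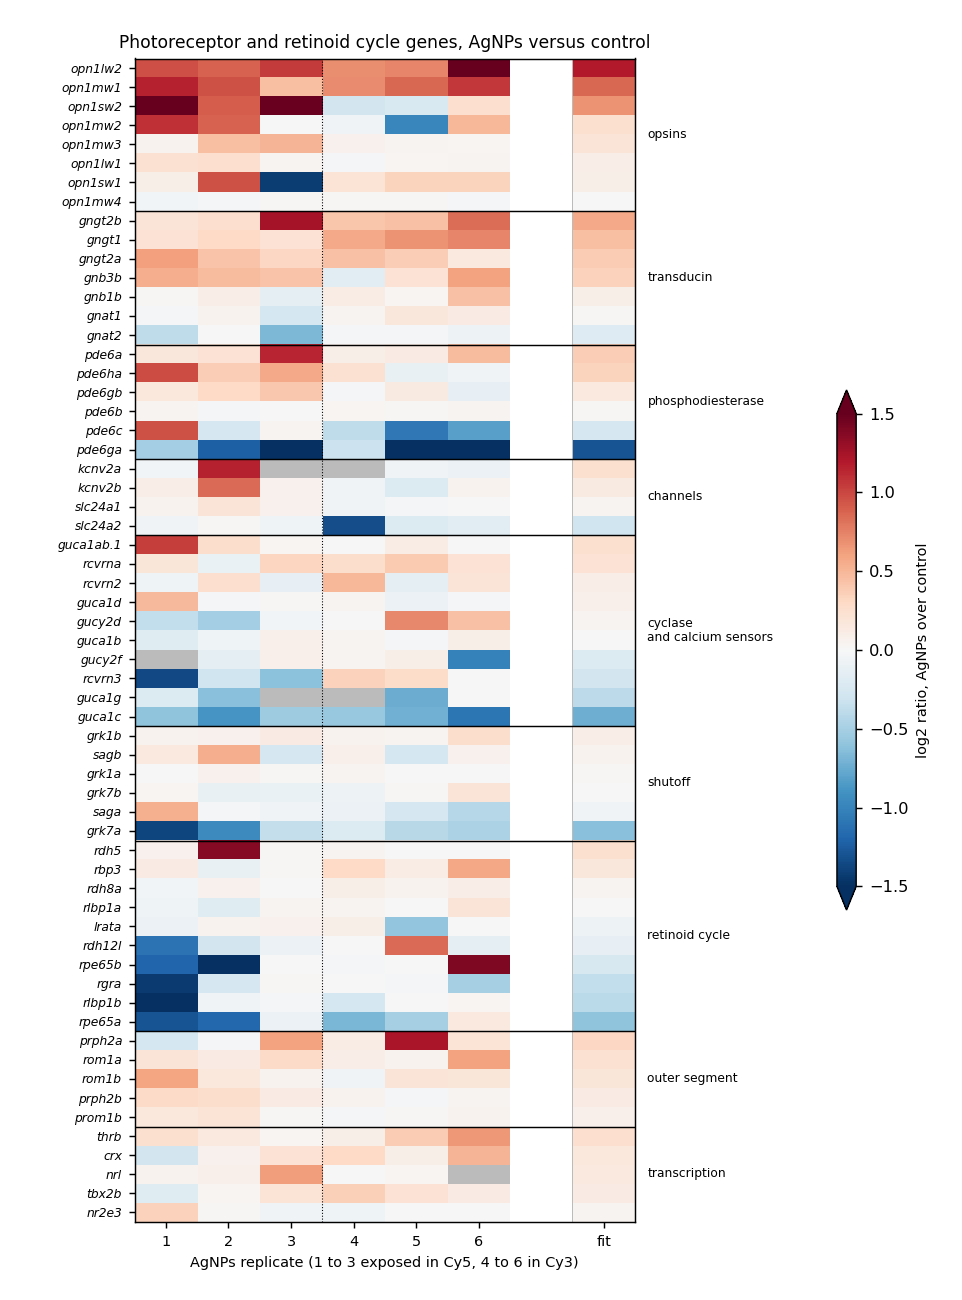
Log2 ratio of AgNPs over control (colour, limits at -1.5 and 1.5) of the 61 tested photoreceptor and retinoid cycle genes, one per line and grouped by role, on AgNPs replicates 1 to 6 (x axis) with the fitted value at the right; grey marks an empty value. The genes opn1lw2 (1.19), opn1mw1 (0.86) and gngt1 (0.45) are above 0 on every array, and pde6ga (-1.29) and guca1c (-0.73) below 0.

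Genes of intestinal absorption encode the transporters and peptidases of the brush border and the proteins that pack dietary lipid. With AgNPs 9 of 31 tested members lay above 0 and 22 below, with a median of -0.067, and 0 passed the adjusted threshold. The list was again chosen with earlier results of these data known. At an unadjusted p under 0.05 stood 1 higher and 8 lower, 25.8% of the list on the lower side against 2.19% of all features. Without replicates 1 and 2 these counts were 1 and 6 (3.23% and 19.4%, against 2.58% and 2.73%). Turning the swapped arrays made the counts 1 and 7 (3.23% and 22.6%, against 2.88% and 2.8% of all features) and the median -0.071. The proton-coupled peptide transporter gene slc15a1b (PepT1) had -0.80, -0.50, -1.10, -0.33, -0.74 and -0.65 on AgNPs replicates 1 to 6 and a fitted value of -0.69 (SE 0.11, limma adjusted p = 0.108). Every array lay below 0, and replicate 3 was lowest.

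The gene slc26a3.2, whose human counterpart exchanges chloride for bicarbonate, had -0.15, -0.31, -1.22, -0.98, -1.54 and -0.70, nearest to 0 on replicates 1 and 2, which are the AgNPs arrays of wider spread. Its fitted value was -0.82 (SE 0.14, limma adjusted p = 0.155), against -0.032 with AgNO3, and the difference AgNPs minus AgNO3 was -0.78 (95% interval -1.21 to -0.36), which did not pass over all features. The aminopeptidase gene anpepb.1 was at -0.83 at the lowest, -0.66 at the median and -0.077 at the highest, and the sodium-glucose cotransporter gene slc5a1 at -0.87 at the lowest, -0.37 at the median and -0.18 at the highest. Both were below 0 on all 6 arrays, with fitted values of -0.58 and -0.40. Among lipid handling genes, where 5 of 10 lay above 0, the fatty acid receptor gene cd36 stood at -0.50 and the apolipoprotein gene apoa4b.2 at 0.44; both were named after their values were seen. The structural gene vil1 (villin), a marker of the brush border itself, stood at -0.064 and the gut identity factor gene cdx1b at 0.039. Whether the number of absorptive cells differed was not tested.

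DNA replication genes lay mostly above 0. Of 24 tested genes of the replication machinery 22 were above 0 with AgNPs, 11 at an unadjusted p under 0.05 (45.8%, against 2.05% of all features), 12 on all 6 arrays (against 2.05% of all features), with a median of 0.21. None passed the adjusted threshold, and the list was chosen with earlier results of these data known. Cyclins and mitotic kinases had a median of 0.082 with 0 of 12 at that unadjusted p, and other mitosis genes 0.023 with 1 of 7. The whole list of 43 had 12 higher (27.9%) and 0 lower. Without replicates 1 and 2 it had 5 and 1 (11.6% and 2.33%, against 2.58% and 2.73% of all features), and its median was 0.063 in place of 0.14. After turning of the swapped arrays the list had 1 higher and 2 lower (2.33% and 4.65%, against 2.88% and 2.8% of all features) and a median of 0.05.

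The gene cdca7a, whose human counterpart works with the chromatin remodeller HELLS, had 0.99, 0.21, 0.54, 0.40, 0.49 and 0.68 on AgNPs replicates 1 to 6 and a fitted value of 0.55 (SE 0.12, limma adjusted p = 0.403). The clamp loader gene rfc4 had 0.64, 0.30, 0.28, 0.16, 0.88 and 0.48 and a fitted value of 0.46 (SE 0.096). The DNA polymerase delta genes pold1 and pold3 had fitted values of 0.33 and 0.37. All 24 values of these 4 genes were above 0. The helicase gene mcm5 stood at 0.20, with 3 of its 4 probes higher and 1 lower. The sliding clamp gene pcna, a common marker of replicating cells, was below 0 on replicates 3 to 6 and stood at -0.076; it was named after its values were seen. With AgNO3 the fitted values were 0.019 for cdca7a, 0.20 for rfc4, 0.039 for pold1 and 0.061 for pold3.

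**Figure D4:**
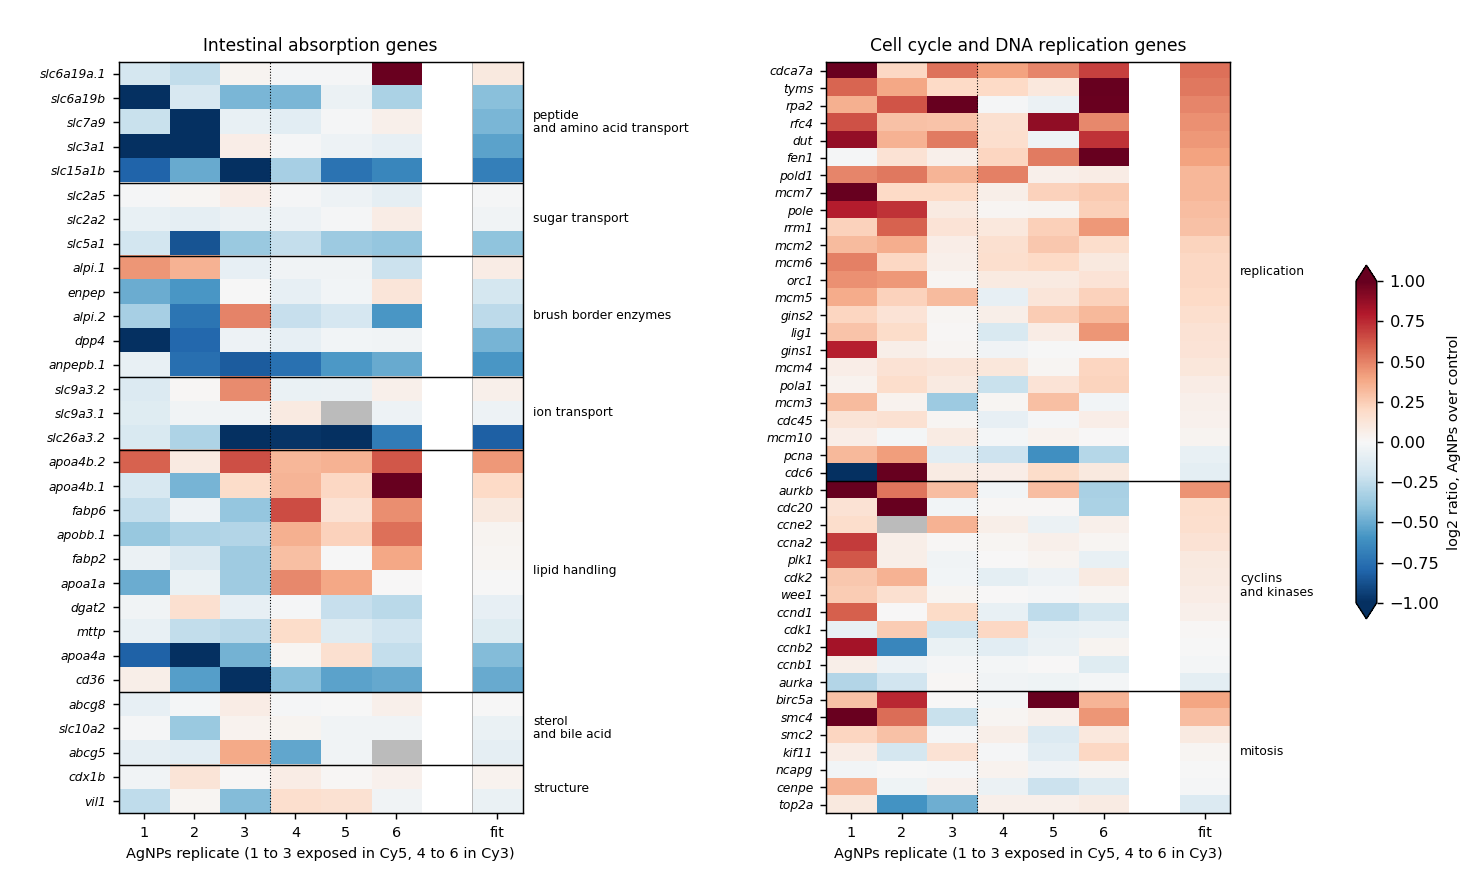
Log2 ratio of AgNPs over control (colour, limits at -1 and 1) of 31 intestinal absorption genes (left) and 43 cell cycle and DNA replication genes (right), one per line and grouped by role, on AgNPs replicates 1 to 6 (x axis) with the fitted value at the right of each panel; grey marks an empty value. The transporter gene slc15a1b (-0.69) is below 0 on every array, and 22 of 24 replication genes have a fitted value above 0.

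No metal handling gene passed. Metallothionein mt2, a transcript commonly used as a sign of metal exposure in fish, had 0.39, 0.12, 0.24, 0.25, 0.099 and 0.19 on AgNPs replicates 1 to 6. The fitted value of 0.22 (SE 0.07, 116% of control) did not pass, with a limma adjusted p of 0.947. On replicate 1 only 1 of the 4 probes tested on their own was above 0, at 0.75, so the value above 0 there rests on the remaining probe, which had too few values to be tested. Averaged over the 4 tested probes, mt2 had a fitted value of 0.16 (an alternative added after seeing the data). Over the 36 tested genes for metallothioneins and for zinc, copper and iron transport, the median was 0.024. At an unadjusted p under 0.05, 1 was higher and 2 lower (2.78% and 5.56%, against 2.05% and 2.19% of all features and 2.67% and 2.67% of all tested genes). The higher one was mt2, which left 0 higher when only tested probes were averaged, and the 2 lower ones were the transporter genes slc30a4 (-0.21) and slc30a10 (-0.40). The copper chaperone gene ccs stood at 0.48, at 0.27 without replicate 4, and at 0.18 on its 1 probe with enough values, -0.015 on replicate 4. Turning the swapped arrays gave the metal handling list 0 higher and 1 lower (2.78%), against 2.88% and 2.8% of all features.

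Among 55 tested antioxidant and glutathione genes 41 lay above 0 with AgNPs, with a median of 0.059; 5 were higher and 0 lower at an unadjusted p under 0.05, 9.09% of the list on the higher side against 2.05% of all features. Without replicates 1 and 2, 3 were higher (5.45%, against 2.58% of all features). Once the swapped arrays were turned, 4 were higher and 7 lower at that p (7.27% and 12.7%, against 2.88% and 2.8% of all features). The larger of these counts thus changed side, while 31 of the 55 members lay above 0 and 24 below, with a median of 0.023. The peroxiredoxin gene prdx1, which removes peroxide, had 0.42, 0.14, 0.49, 0.44, 0.32 and 0.28, above 0 on every array, and a fitted value of 0.35 (SE 0.08, limma adjusted p = 0.481). With AgNO3 prdx1 stood at 0.33. The glutathione transferase genes gstt1b, gsto1 and gstm.3 had fitted values of 0.43, 0.73 and 0.22; gsto1 ranged from -0.13 to 1.83 between arrays, and gstm.3 stood at 0.13 without replicate 1. Glutathione synthesis genes had a median of 0.019 and thioredoxin genes 0.017.

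Chaperones and genes of the unfolded protein response had values on both sides of 0. At an unadjusted p under 0.05 stood 2 of 47 higher and 3 lower (4.26% and 6.38%, against 2.05% and 2.19% of all features). The mitochondrial chaperone gene hspa9 stood at -0.22, below 0 on all 6 arrays with 4 of 4 probes, and the heat shock factor gene hsf2 at -0.74 (-0.47 without replicate 5). Innate immune genes had 0 of 42 higher and 1 lower (2.38%) at that p. Genes of ion regulation, which hold the sodium pump and carbonic anhydrase of the ionocytes, had 0 of 36 higher and 2 lower (5.56%).

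Among 24 liver genes 19 lay above 0, with a median of 0.11. At an unadjusted p under 0.05 stood 4 higher (16.7%) and 0 lower, against 2.05% and 2.19% of all features. The apolipoprotein M gene apom had 0.35, 0.40, 0.62, 1.03, 0.42 and 0.51, above 0 on every array, and a fitted value of 0.56 (SE 0.11, limma adjusted p = 0.296). The liver fatty acid binding protein gene fabp10a stood at 0.33, near 0 on replicates 1 and 2 and at 0.42 to 0.57 on replicates 3 to 6. Without replicates 1 and 2 the liver median was 0.0031, with 4 higher and 2 lower (16.7% and 8.33%, against 2.58% and 2.73% of all features). With the swapped arrays turned it was -0.14, with 1 higher and 5 lower (4.17% and 20.8%, against 2.88% and 2.8%). If the values were already turned, that last fit sets one orientation against the other and cannot show whether a direction holds. With the Cy5 arrays alone the liver median was 0.11, with 16 members above 0 and 8 below. With the Cy3 arrays alone it was 0.10, with 15 above 0 and 9 below.

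More features passed for dye orientation than for exposure, with the values taken as already turned. Had the values not been turned, the dye term would hold the part of a response that both exposures share. For 72 features (0.285%) the log2 ratio differed between the dye orientations, 41 higher with exposed RNA in Cy5 (0.162%) and 31 lower (0.123%). By their codes, no exposed sample was placed in both orientations. Values had up to 10 significant digits on the Cy5 arrays and up to 6 on the Cy3 arrays. Dye, exposed samples and the handling of the values therefore cannot be told apart in this term. The lens crystallin gene crygm2d3 had 1.46, 0.92, 1.61, -0.47, -0.20 and -0.46 on AgNPs replicates 1 to 6, with the 3 Cy5 arrays above 0 and the 3 Cy3 arrays below (difference Cy5 minus Cy3 1.89, limma adjusted p = 0.00526). The same split held for acot9.2 (1.38) and mrpl20 (1.08), and the reverse for ugt1a1 (-0.83), dhdh.2 (-0.85) and si:dkey-69o16.5 (-0.67).

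Ribosomal protein genes differed by dye orientation as a list, again with the values taken as already turned. Of 68 tested members 46 had a fitted value above 0 with AgNPs. At an unadjusted p under 0.05 stood 9 higher and 1 lower (13.2% and 1.47%, against 2.05% and 2.19% of all features). The list's median was 0.28, 0.22 and 0.079 on the Cy5 arrays 1 to 3, and -0.055, -0.025 and -0.12 on the Cy3 arrays 4 to 6. Members past the adjusted threshold of the dye term were 10 of 68, against 0.285% of all features. On all 6 arrays 2 members were higher, where 2.05% of all features were. With arrays scaled to a common spread the median was -0.019 in place of 0.062. In the fit with swapped arrays turned, 23 members were higher and 3 lower (33.8% and 4.41%, against 2.88% and 2.8% of all features), with a median of 0.13. The 5 named genes past the threshold for AgNPs had log2 ratios of 1 sign on both orientations, which their selection by the mean of both makes likely.

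**Figure D5:**
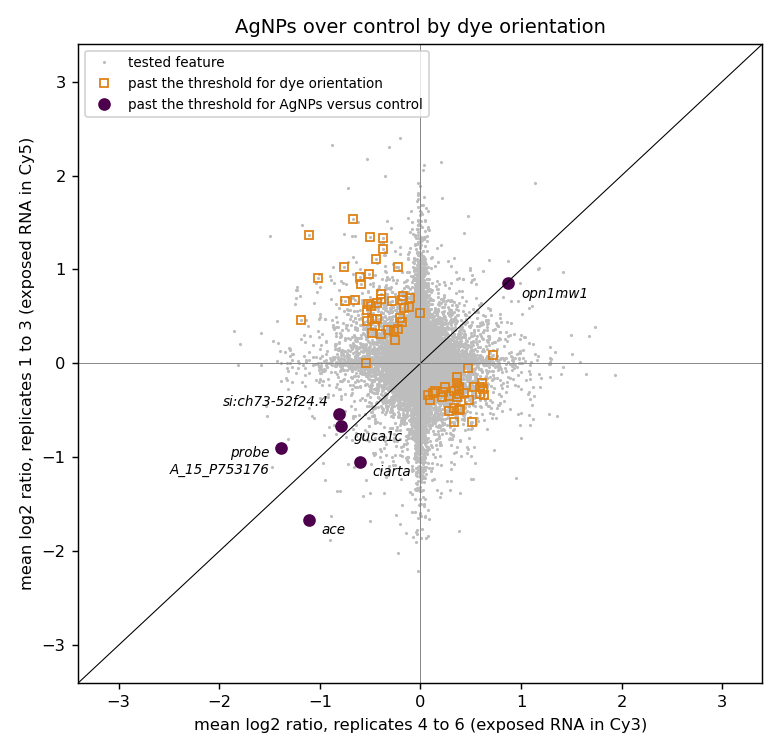
Mean log2 ratio of AgNPs over control over replicates 1 to 3 with exposed RNA in Cy5 (y axis) against that over replicates 4 to 6 with exposed RNA in Cy3 (x axis), one grey point per tested feature; squares mark the 72 features past the threshold for dye orientation, and filled circles the 6 past it for AgNPs versus control. The 6 lie in the corners of equal sign, ace at -1.67 in Cy5 and -1.11 in Cy3, whereas the squares lie mostly in the corners of opposite sign. The way in which each set was selected makes these places likely.

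The nanoparticles and the salt were compared directly as AgNPs minus AgNO3 in the same model. No feature passed (0 of 25264, which is 0%, smallest limma adjusted p = 0.858), and 1066 features (4.22%) had an unadjusted p under 0.05. Differences of the called features lay on the side of a larger value with AgNPs: -0.59 for ace (95% interval -0.88 to -0.29), -0.26 for the clock gene ciarta (-0.60 to 0.071), -0.14 for guca1c (-0.41 to 0.13), 0.41 for the opsin gene opn1mw1 (0.15 to 0.66), -0.37 for the gene model si:ch73-52f24.4 (-0.58 to -0.16) and -0.88 for probe A_15_P753176 (-1.28 to -0.47). Features called for a large value with AgNPs tend to lie on that side, so these differences are descriptions. Of lowest p above 0 were hspa5, the main chaperone of the endoplasmic reticulum, with 0.50 (0.31 to 0.68), the splicing gene lsm6 with 0.48 and the embryonic globin gene hbae3 with 0.89; with AgNPs alone hspa5 stood at 0.092. Below 0 the lowest p were those of tefa with -0.83 (-1.23 to -0.44), coq9, a gene of coenzyme Q synthesis, with -0.46, and ace.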

How the data were processed

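Each of the 6 AgNPs arrays and of the 6 AgNO3 arrays paired RNA of whole exposed larvae with RNA of control larvae in Cy3 and Cy5, per the labels. The deposited values were 1 log ratio per probe, taken here as log2; the base is an assumption, since the authors' labels do not name it and values reached -8.02 and 7.67. Extraction used Trizol and labelling used cyanine dyes, per the labels' protocols. The sources used here do not give how arrays were scanned, background-corrected, normalized and filtered. The 43603 probes of an array had 6.97% to 10.9% empty values and medians of -0.0093 to 0.015, so centring by the authors was assumed. Genome coordinates, sequences and intensities were not used here, and precision is limited by the number of arrays. Columns of values left out numbered 0.

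Gene names came from the platform annotation, brought up to date by accession (24749 probes), current symbol (4278) and synonym (1133), and 26 kept an old symbol; 13417 had no gene. Probes with a value were averaged per gene and array, so a gene's arrays can rest on different probes, which gave 28497 features. A feature was tested with values on at least 2 of 3 arrays of each orientation in each group. Fits used limma 3.58.1 in R 4.3.3 (lmFit, eBayes) with a mean per exposed group and dye orientation as covariate, all 12 arrays sharing 1 spread per feature although AgNPs replicates 3 to 6 spread less. Each SE came from that shared spread, and n = 6 counts the AgNPs arrays. The adjusted p threshold was 0.05 and intervals are at 95%. In data simulated with the measured spreads (5 runs, AgNPs versus control, 25264 features), 43.2% of features shifted by 0.5 were called. Of those shifted by 1, 1.5 and 2, the shares called were 78.4%, 91.6% and 95.2%. Each run held 200 shifted features and gave 154.2 true and 10 false calls on average. The simulated noise was independent, with 1 spread per feature for all 12 arrays, unlike the measured arrays. Many more features were shifted than passed in the data, so these shares may overstate what could be detected here.

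Members and the 24 gene lists were chosen with earlier results of these data known, and lists are described by counts and medians with no test. Named are genes past the threshold, the 15 further genes of lowest p in each direction with 6 values, up to 4 genes of lowest p per list, 3 per direction of the AgNPs minus AgNO3 and dye terms, mt2 and the renin-angiotensin genes (121 genes, not all printed). Alternatives covered arrays in the fit, dye term, weights, scaling, centring, blocks, orientation, gaps, probes, moderation and each array left out. Fits of each dye orientation alone, and of genes averaged over only those probes that pass the filter on their own, were added after seeing the data. Other list members in the text were picked after their values were seen, to fill out a role.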

Additional observations from a re-analysis of the deposited data

Results flagged for a closer look

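Of 121 named genes checked on the 6 AgNPs arrays, 21 had 1 array apart from the other 5 by Dixon's criterion; chance alone sets apart about 1 group in 20. AgNPs replicate 1, the AgNPs array of widest spread, held 11 of the 21, and the reason was not tested. Its values were 1.04 for cyp2y3, a liver cytochrome, 1.35 for the embryonic globin gene hbae3, 0.61 for the collagen gene col11a1a, 1.14 for fabp7b, 0.90 for s100b and 0.71 for gap43, genes of glia and growing axons, 0.74 for gstm.3, 2.86 for the lens crystallin gene crybb2, 3.29 for the cytokine gene il10, 0.98 for the pigment gene tyrp1b and 0.51 for the yolk gene vtg4. Without replicate 1 the fitted values were 0.24 for cyp2y3, 0.24 for hbae3, 0.12 for fabp7b, 0.088 for s100b, 0.14 for crybb2 and -0.034 for il10, against 0.38, 0.40, 0.30, 0.20, 0.59 and 0.72 with it. Averaged over probes with enough values alone, s100b stood at 0.39.

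On replicate 2, -0.87 for slc5a1 and -1.16 for zp2.1, an egg coat gene, stood apart. On replicate 3 these were 0.97 for icn2, -0.81 for the chymotrypsinogen gene ctrb.1 and 2.62 for the globin gene hbaa1, which stood at 0.049 without it. On replicate 4 they were -0.42 for hspa9 and 1.93 for the crystallin gene crygm3, on replicate 5 1.1 for the sodium pump gene atp1a1b, and on replicate 6 2.81 for the red opsin gene opn1lw2 and -1.59 for the pigment gene pnp4a.

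Among the 121 named genes, 1 had every AgNPs array on one side of 0 and every AgNO3 array on the other: hbae3 was above 0 on every AgNPs array (1.35, 0.16, 0.51, 0.072, 0.11 and 0.19) and below 0 on every AgNO3 array (-0.45, -0.091, -0.38, -0.50, -0.79 and -0.74). The difference was 0.89 (95% interval 0.51 to 1.28), with an unadjusted p of 0.000365 and a limma adjusted p of 0.858 over all features, so it did not pass. It rests partly on replicate 1, at 1.35.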

How the results depend on the processing

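The count of 6 features for AgNPs versus control was 0 by limma with the 6 AgNPs arrays alone (1074 at an unadjusted p under 0.05), with dye-swapped arrays turned (1436) and with the Cy5 (872) or Cy3 (1115) arrays alone, 10 with array weights (6 shared with the 6), 20 with arrays scaled to a common spread (5 shared), 3 without AgNPs replicates 1 and 2, and 10 without replicates 3 to 6 (0 shared). Leaving out 1 AgNPs array gave 1 to 7 features (1 without replicate 5, 3 without replicate 1) and leaving out 1 AgNO3 array 3 to 6 (3 without AgNO3 replicate 1 or 4). For AgNPs minus AgNO3 the count of 0 was 7 without AgNPs replicates 3 to 6 and 0 to 1 with 1 array left out (1 without AgNO3 replicate 4). The dye count of 72 was 0 with the 6 AgNPs arrays alone, 31 scaled, 14 turned, 238 with each probe on its own, 34 without replicates 1 and 2, 0 without replicates 3 to 6, 0 and 5 with the Cy5 or Cy3 arrays alone, and 32 to 83 with 1 array left out. The other 57 counts stayed within 1.5 times. With only the probes that pass the filter averaged, the same 6 features passed. With the swapped arrays turned, 3 called genes changed sign: opn1mw1 to -0.012, si:ch73-52f24.4 to 0.14 and guca1c to 0.059. The called probe A_15_P753176 changed sign as well, to 0.24. In that fit ace stood at -0.28 and ciarta at -0.23. If the values were already turned, the fit sets one orientation against the other. Features called for like values in both orientations then lie near 0 on either side, so these signs do not bear on the calls. The upper ends of the adjusted p ranges given for ace, opn1mw1, cry2 and opn1lw2 also come from that fit. The causes were not tested. Same-numbered AgNPs and AgNO3 arrays correlated at -0.049 to 0.095 in their deviations from the group means. Arrays that share a control sample correlated at -0.107 to -0.0049. Same-numbered pairs always had the same dye orientation, and pairs that share a control sample the opposite one. Only group means were removed, so dye differences stayed in. Other pairs had a mean of 0.082 in the same orientation and -0.074 in the opposite one. Such correlations therefore cannot show whether the numbers pair samples. By their codes, same-numbered arrays do not share a control sample. The fit with replicate number as a block called 0 features in AgNPs (1262 at an unadjusted p under 0.05), with an adjusted p of 0.052 for ace. Signal over background is unknown, so what low signal limits could not be judged.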

Other observations

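A few genes of low p in AgNPs belong to none of the groups above, and none passed the threshold. The threonine dehydrogenase gene tdh, which opens the breakdown of threonine, had -0.88, -1.28, -0.71, -0.49, -0.52 and -0.39 on AgNPs replicates 1 to 6, below 0 on every array and with 4 of 4 probes (fitted value -0.71, SE 0.11, limma adjusted p = 0.102). It passed with array weights (limma adjusted p = 0.01), in a range of 0.01 to 0.94 over all alternatives. The gene dedd1, which encodes a protein with a death effector domain, was at -0.54 at the lowest, -0.35 at the median and -0.24 at the highest, with 5 of 5 probes lower and a fitted value of -0.38. The phosphate transporter gene slc34a2a stood at -0.38, and mat2aa, which makes the methyl donor S-adenosylmethionine, at -0.39 with 2 of 3 probes lower. Above 0 stood nutf2l, a nuclear transport factor gene, at 0.40 and polr2d, a subunit gene of RNA polymerase II, at 0.48.

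The remaining lists are given by their members at an unadjusted p under 0.05, which 2.05% of all features had on the higher and 2.19% on the lower side, and 0 of these members passed the adjusted threshold. There were 0 higher and 0 lower among 18 gonad and estrogen response genes, 0 and 0 among 22 lens genes, 0 and 0 among 14 pigment cell genes, 1 and 1 among 37 genes of neurons and glia, 1 and 0 among 15 blood cell genes, and 1 and 0 among 25 genes of cartilage and bone. Skin had 2 and 3 of 29, fast muscle 2 and 2 of 25, mitochondrial respiration 3 and 4 of 48, cholesterol and lipid synthesis 3 and 0 of 27, and p53 and DNA damage 3 and 3 of 22.

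Enzymes of the exocrine pancreas had 0 higher and 3 lower of 18. The carboxypeptidase gene cpa1 had -0.53, -0.17, -0.50, -0.35, -0.74 and -0.046 on AgNPs replicates 1 to 6, below 0 on every array (fitted value -0.39, limma adjusted p = 0.81), against a fitted value of 0.27 with AgNO3. The difference AgNPs minus AgNO3 was -0.66 (95% interval -1.01 to -0.30) and did not pass over all features.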
